A study of Rattus norvegicus with 12 samples.

Results

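Potassium channel genes were taken as the protein-coding loci of the count table whose symbol begins with Kcn, which gave 92 members of 34599 loci. RNA-seq was performed on the left ventricle of 12 male Sprague-Dawley rats, 4 in each group, with tissue of the infarct region taken 1 day after surgery. Sham rats had the chest opened only, whereas in MI rats the LAD (left anterior descending artery) was tied off. In the iCarP+/Light+ group the heart with the tied LAD was injected with Chlorella, an oxygen-producing green alga, and covered with the light-scattering patch (iCarP), which was then lit through its optical fiber. Alga, patch, adhesive and light differed together from MI, so their shares in a difference cannot be told apart. Rats keep the numbers of their labels: 1, 2, 3 and 5 in Sham, 1, 3, 4 and 5 in MI, and 1, 2, 4 and 5 in iCarP+/Light+.

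Potassium channels let potassium ions leave the cell and thereby set the resting potential and end the action potential of the cardiomyocyte. In the ventricle of the rat, the early repolarization is carried mainly by the transient outward current, later phases by delayed outward currents, and the resting potential by the inward rectifier. Each current is carried by pore-forming subunits, and accessory subunits set how many channels reach the membrane and how fast they open and close. Outside the cardiomyocyte, other members serve vascular smooth muscle, fibroblasts, nerves and leukocytes.

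Of the 92 members, 47 had at least 10 counts in at least 4 of the 12 libraries and were tested. The other 45 were not tested: 9 had 0 counts in all 12 libraries and 36 had between 1 and 162 counts in total. Only 26 members reached 10 counts in every library. Kcnip2 and a KCND2-like locus described with it below passed only through the Sham libraries, Kcnk12 only through the MI libraries and Kcnrg only through the iCarP+/Light+ libraries, while Kcne5 and Kcnt1 passed through Sham and MI libraries alone and Kcnq5, Kcnh1 and Kcnk7 through MI and iCarP+/Light+ libraries alone, so counts over the tested members lean toward genes that differ. Values are CPM, counts per 1000000 counts of the library, scaled by TMM, a method that corrects library size for differences in RNA composition. A log2 fold change is always the first group named minus the second, with its SE, and adjusted p-values are from edgeR's quasi-likelihood test over all 15175 genes that passed the same filter.

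Library totals were 14064414 to 17136958 counts, and 3 counts, the most that a count of 0 allows, were worth 0.144 to 0.227 CPM, for counting error only. The tissue itself differed between the groups. The summed level of 9 cardiomyocyte markers was 49115 to 53607 CPM in Sham rats, 3040.2 to 5857 CPM in MI rats and 2448 to 6834 CPM in iCarP+/Light+ rats, and that of 9 leukocyte markers was 238 to 412, 3953 to 7046 and 6016 to 10939 CPM in the same order. All 9 cardiomyocyte markers were lower in MI than in Sham (median log2 fold change −3.32) and none was called between iCarP+/Light+ and MI. Of the leukocyte markers, 9 were higher in MI than in Sham, and 5 were called higher in iCarP+/Light+ against MI. The summed level of 6 fibroblast markers was 3740 to 4284, 1082 to 1363 and 777 to 1566 CPM in the same order, with 5 lower in MI than in Sham (median −1.98), and that of 5 endothelial markers was 1349 to 1531, 597 to 869 and 734 to 832 CPM, with all 5 lower (median −1.05). In bulk tissue, fewer cells of a type and less RNA per cell cannot be told apart, and the part of these shifts in the results below was not tested except where values are set against the cardiomyocyte markers.

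Sequences are shown for 3 members on which the results turn and for which RefSeq lists a start site: Kcnip2, with the lowest log2 fold change in MI against Sham, and Kcnj2 and Kcne4, which were higher with iCarP+/Light+ than after MI alone. Each is the 250 bases before the listed start in the RefSeq build GRCr8, 5′ to 3′ on the gene's strand. Capitals mark matches on either strand to CACCC, a box that Krüppel-like factors bind, or to ACGTG, the core of the hypoxia response element.
Kcnip2, chr1:254613899-254614148, minus strand: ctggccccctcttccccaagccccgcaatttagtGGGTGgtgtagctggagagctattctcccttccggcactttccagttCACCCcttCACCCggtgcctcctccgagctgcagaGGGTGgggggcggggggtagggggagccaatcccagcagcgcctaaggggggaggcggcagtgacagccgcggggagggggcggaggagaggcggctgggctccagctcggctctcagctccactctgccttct
Kcnj2, chr10:96559975-96560224, plus strand: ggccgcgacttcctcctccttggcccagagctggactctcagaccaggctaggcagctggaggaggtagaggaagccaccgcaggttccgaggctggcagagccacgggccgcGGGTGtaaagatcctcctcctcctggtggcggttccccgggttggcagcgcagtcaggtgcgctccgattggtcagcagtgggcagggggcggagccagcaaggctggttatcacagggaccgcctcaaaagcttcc
Kcne4, chr9:87695798-87696047, plus strand: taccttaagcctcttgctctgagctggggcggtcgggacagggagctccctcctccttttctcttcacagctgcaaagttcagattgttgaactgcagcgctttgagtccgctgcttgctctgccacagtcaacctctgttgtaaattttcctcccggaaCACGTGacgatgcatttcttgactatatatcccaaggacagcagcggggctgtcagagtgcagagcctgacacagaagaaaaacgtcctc
The window of Kcnip2 held 4 CACCC boxes and no ACGTG, that of Kcnj2 held 1 CACCC box, and that of Kcne4 held ACGTG on both strands as the palindrome CACGTG. Among all 33469 promoter windows, 49.2% held CACCC, 16.6% ACGTG and 12.9% TATAAA, the TATA box, on either strand. Windows were listed for 62 of the 92 members, and of their 68 windows 69.1% held CACCC, 10.3% ACGTG and 2.94% TATAAA. The letters ACGTG were in 0 of the 14 windows of members that were lower in MI and in 2 of the 8 windows (25.0%) of members that were higher. CACCC was in 7 of the 14 windows of members that were lower and in 7 of the 8 (87.5%) of members that were higher. These are matches of letters, not sites.

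In MI against Sham, most subunits of the currents that repolarize the ventricle were lower, whereas 9 members were higher. Of these, 5 were from a list of members known from cells other than the cardiomyocyte (Kcnn4, Kcna3, Kcnk13, Kcne3 and Kcne4). The gene lists were chosen with earlier results of these data known. The remaining members that were higher were Kcnab2 and 3 that passed the filter through the infarcted libraries alone (Kcnq5, Kcnh1 and Kcnk7). Of the 47 tested members, 24 (51.1%) were lower, 9 (19.1%) were higher and 14 were not called, with a median log2 fold change of −0.93. Among all genes tested, 63.6% were called, 33.6% lower and 30.1% higher, with a median of −0.06. In CPM, 22 members were lower in every MI rat than in any Sham rat and 8 were higher, where the shares of all genes were 31.4% and 27.6%. With libraries scaled by total counts alone, 16 members were lower and 13 higher, while the median of all genes moved to 0.52 and that of the members to −0.35. Of all genes, 18.4% were lower and 50.8% higher under that scaling. The members' median minus that of all genes was −0.87 under both scalings. Among the members that did not pass the filter through 1 group alone, Kcnk2 was the furthest below Sham, 36.7-fold, and Kcnn4 the furthest above, 34.7-fold. Kcnip2, which passed only through Sham, was 76.6-fold lower. A plot of the log2 fold changes of 46 of the 47 tested members sets both comparisons side by side.

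**Figure D1:**
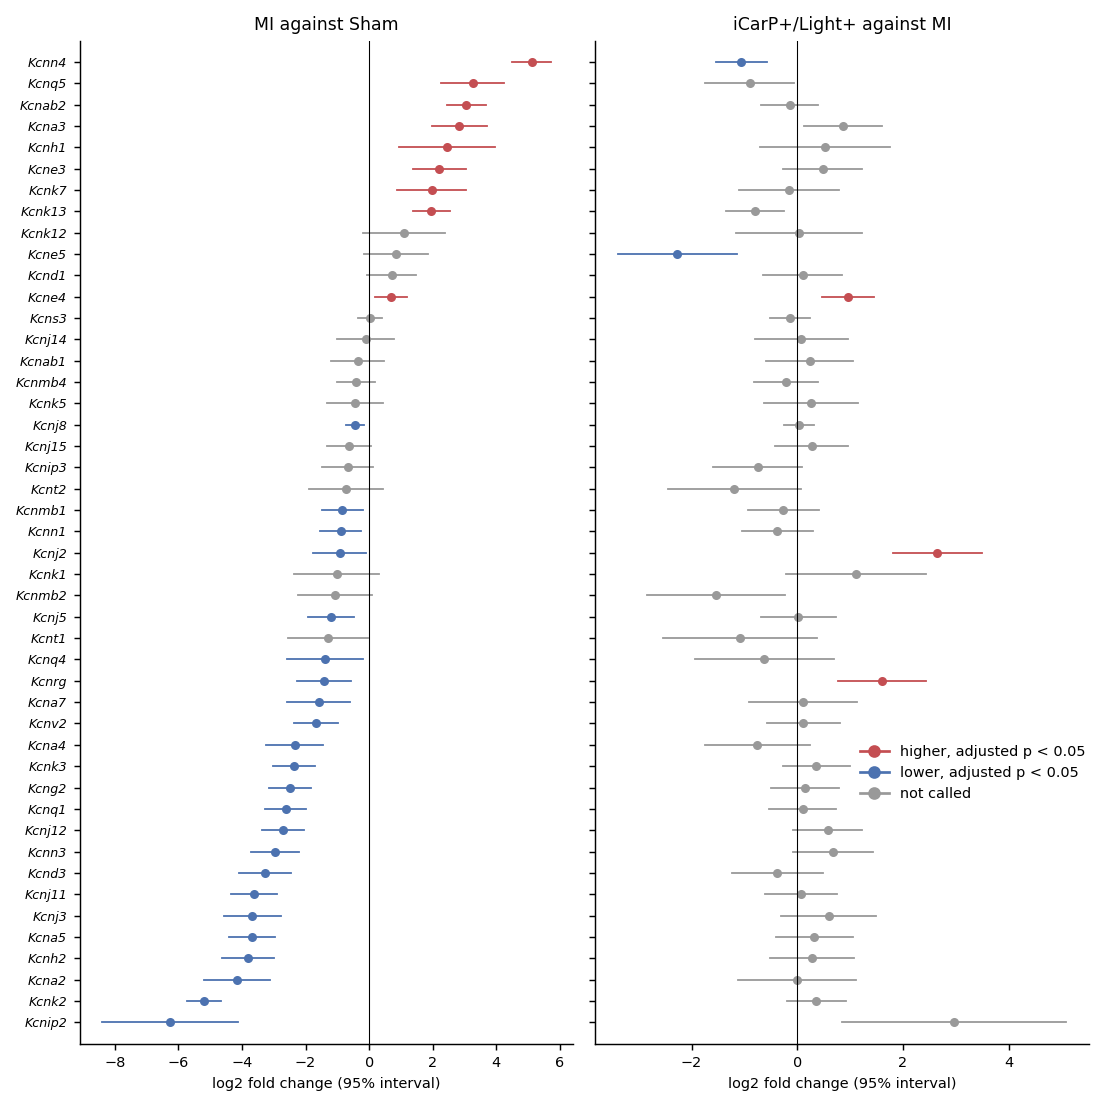
Log2 fold change of 46 of the 47 tested potassium channel genes (rows, ordered by MI against Sham) with its 95% interval, for MI against Sham (left) and iCarP+/Light+ against MI (right), with separate horizontal scales. In the left panel 23 of those shown are called lower and 9 higher at an adjusted p below 0.05, and in the right panel 3 are higher and 2 lower.

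By class, the voltage-gated pore subunits were lower most often in number, with 11 of 16 tested lower and 3 higher (38 listed, median −2.0). Of the inward rectifiers, 6 of 8 tested were lower and 0 higher (15 listed, median −1.06). The other classes were divided. Accessory subunits had 3 lower and 3 higher of 11 tested (27.3% each, 17 listed, median −0.42) and the tandem-pore background channels 2 lower and 2 higher of 7 (28.6% each, 14 listed, median −0.44), both near the 33.6% lower and 30.1% higher among all genes. There were 2 lower and 1 higher of 5 tested calcium- and sodium-activated channels (8 listed, median −0.90). Of 23 listed genes for subunits of known cardiac currents, 19 were tested, and 17 of these were lower, 1 was higher and 1 was not called (median −2.63). The 1 that was higher was Kcnab2 and the 1 not called was Kcnab1, both cytoplasmic beta subunits.

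The transient outward current is formed by pore subunits encoded by Kcnd2, Kcnd3 and Kcna4 and by the accessory subunit KChIP2, which carries the Kcnd-encoded channels to the membrane and is encoded by Kcnip2. Kcnip2 (ENSRNOG00000050450, rn6 chromosome 1, 265549593 to 265573409, minus strand) was at 30.1, 29.1, 36.2 and 28.1 CPM in the Sham rats and at 0.288, 0.324, 0.392 and 0.585 CPM in the MI rats. The highest MI rat was thus far below the lowest Sham rat. The log2 fold change was −6.26 ± 0.99 (adjusted p = 1.04e-04), but the gene passed the filter only through the Sham libraries, so its values are a description and its call gives no support to a fall. Kcnd3 (ENSRNOG00000014686, chromosome 2, 207923775 to 208140727, plus strand), a pore subunit, was at 10.8, 12.1, 14.4 and 10.2 CPM in Sham and 0.911, 2.00, 0.559 and 1.38 CPM in MI, without overlap (−3.28 ± 0.38, adjusted p = 7.57e-06). Kcna4, the pore subunit of the slowly recovering part of the current, was at 1.99 to 4.69 CPM in Sham and 0.426 to 0.719 CPM in MI (−2.34 ± 0.41, adjusted p = 2.35e-04).

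No row carried the symbol Kcnd2. A locus without symbol or type on chromosome 4 (48308607 to 48817722, plus strand), described in the table by its similarity to mouse KCND2 and adjacent to Tspan12, as Kcnd2 is in RefSeq, is given here as the KCND2-like locus and was not counted as a member. It was at 12.3, 17.0, 18.3 and 10.2 CPM in Sham and at 0.288, 1.62, 0.224 and 0.638 CPM in MI. The groups did not overlap, and the log2 fold change was −4.37 ± 0.55 (adjusted p = 1.58e-05), a call that gives no support to a fall either, since the locus passed the filter only through the Sham libraries.

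Subunits of the same current were also compared as ratios within a library, which no scaling can move. They were log2 ratios of counts plus 0.5. The two-sided test was an exact permutation of the rats, where 4 rats against 4 cannot give a p below 0.0286, and adjusted over 8 comparisons. The ratio of Kcnip2 to the sum of the KCND2-like locus and Kcnd3 was 2.26 lower in MI than in Sham on the log2 scale (exact permutation p = 0.0286, adjusted p = 0.0457). The ratio of the KCND2-like locus to Kcnd3 was 1.30 lower (exact permutation p = 0.0286, adjusted p = 0.0457). Since Kcnip2 and the KCND2-like locus passed the filter only through the Sham libraries, where they are high, these differences are a description and their p-values give no support to a shift between the subunits.

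**Figure D2:**
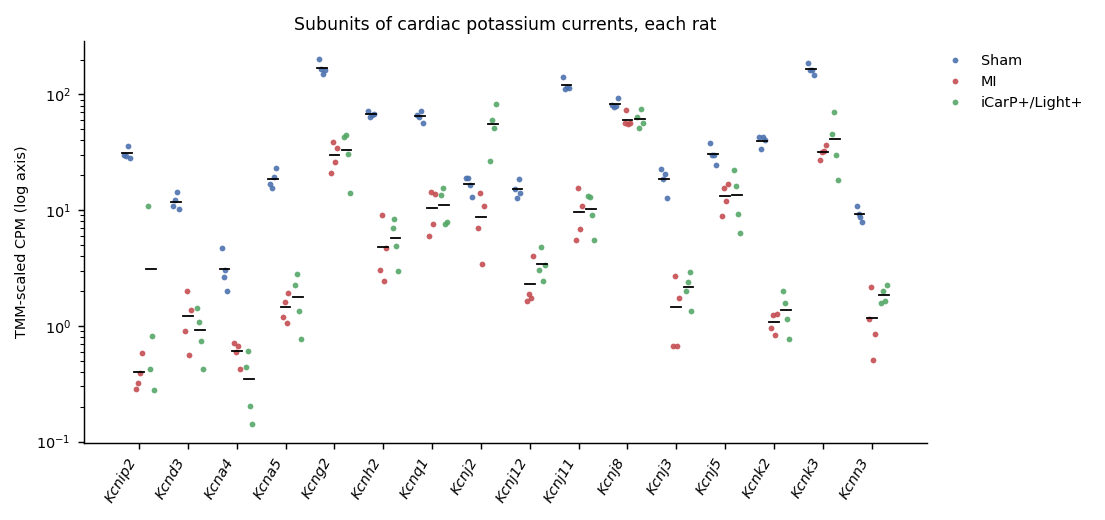
CPM (TMM scaling, log axis) of subunits of cardiac potassium currents in each rat, with 1 point per rat and colors for Sham, MI and iCarP+/Light+ (4 rats each, black bars at the means). Sham points lie above the MI points for most genes shown, while Kcnj8 lies between 51.7 and 92.6 in all 12 rats and Kcnj2 is highest in iCarP+/Light+ rats.

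The delayed outward currents are carried by channels that open later in the action potential. Kcna5, the pore subunit of the ultrarapid component (ENSRNOG00000019719), was at 17.0, 15.6, 19.4 and 23.1 CPM in Sham and 1.20, 1.62, 1.06 and 1.92 CPM in MI (−3.69 ± 0.33, adjusted p = 1.04e-06). The groups did not overlap. Kcng2, which encodes a subunit that is silent alone and modifies other voltage-gated channels, had the highest level of all members per kilobase of listed length in Sham rats (92.2 CPM per kb). It fell from 202, 165, 149 and 162 CPM in Sham to 21.0, 38.5, 26.1 and 34.4 CPM in MI (−2.50 ± 0.30, adjusted p = 1.18e-05). Kcna2, which encodes a Shaker-type pore subunit, was at 14.1, 7.85, 22.4 and 20.1 CPM in Sham and 0.431, 1.13, 1.01 and 1.01 CPM in MI (−4.16 ± 0.48, adjusted p = 7.70e-06). Kcns3, another silent modifier, was at 11.5 ± 1.90, 11.7 ± 2.06 and 10.6 ± 1.51 CPM (SD, n = 4 each) in Sham, MI and iCarP+/Light+ rats, with a log2 fold change of 0.03 in MI against Sham (adjusted p = 0.896); it was chosen after its values were seen.

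The beta subunits bind the Shaker-type channels from inside the cell. Kcnab2 was at 2.38, 2.05, 2.88 and 3.76 CPM in Sham and 33.6, 16.1, 17.1 and 25.8 CPM in MI (3.06 ± 0.28, adjusted p = 1.14e-06), without overlap. Kcnab1 was at 1.57 to 4.62 CPM in Sham and 1.79 to 3.64 CPM in MI, with overlap, and was not called (−0.36, adjusted p = 0.433, and 0.23 with total counts alone).

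The rapid and slow delayed rectifiers have the pore subunits encoded by Kcnh2, the human counterpart of which is affected in a long QT syndrome, and Kcnq1. Kcnh2 (ENSRNOG00000009872, chromosome 4, 7355574 to 7387253, plus strand) was at 71.9, 64.3, 65.9 and 67.8 CPM in Sham and at 3.02, 9.01, 2.46 and 4.74 CPM in MI (−3.81 ± 0.38, adjusted p = 2.19e-06). Kcnq1 was at 56.3 to 71.8 CPM in Sham and 5.94 to 14.4 CPM in MI (−2.63 ± 0.30, adjusted p = 6.38e-06). Both genes were lower in each MI rat than in any Sham rat. Their accessory subunits, encoded by Kcne1 and Kcne2, were not tested: Kcne1 reached at most 0.751 CPM and Kcne2 at most 1.59 CPM in any rat, both in Sham.

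The inward rectifier that holds the resting potential is built from the products of Kcnj2 and Kcnj12. Kcnj12 was at 15.2, 12.8, 18.7 and 14.0 CPM in Sham and 1.63, 1.89, 1.73 and 3.99 CPM in MI (−2.71 ± 0.31, adjusted p = 6.17e-06). Kcnj2 (ENSRNOG00000004720, chromosome 10, 99437436 to 99439114, plus strand) was at 18.9, 19.0, 16.4 and 13.0 CPM in Sham and 7.05, 14.0, 3.41 and 10.8 CPM in MI. The groups overlapped, and its call (−0.93 ± 0.38, adjusted p = 0.0476) was lost in 9 of the 12 fits with a rat left out. Within a library, the ratio of Kcnj12 to Kcnj2 was 1.69 lower in MI than in Sham on the log2 scale (exact permutation p = 0.0286, adjusted p = 0.0457).

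ATP-sensitive channels open when ATP falls, as in ischemia, and join a pore, Kcnj11 in the cardiomyocyte membrane or Kcnj8 mainly in vascular smooth muscle and pericytes, with a sulfonylurea receptor. Kcnj11 (ENSRNOG00000021128, chromosome 1, 102103094 to 102106127, minus strand) was at 143, 110.4, 115 and 113 CPM in Sham and 5.51, 15.6, 6.88 and 11.0 CPM in MI (−3.63 ± 0.33, adjusted p = 1.05e-06). Kcnj8 (ENSRNOG00000013463, chromosome 4, 176782498 to 176789304, minus strand) was at 80.5, 77.1, 79.6 and 92.6 CPM in Sham and 56.7, 72.9, 55.4 and 56.6 CPM in MI. Its small fall (−0.45 ± 0.13, adjusted p = 0.00905) turned to a log2 fold change of 0.13 when libraries were scaled by total counts alone. The log2 ratio of Kcnj8 to Kcnj11 within a library was −0.54 ± 0.22 in Sham rats, 2.74 ± 0.53 in MI rats and 2.66 ± 0.63 in iCarP+/Light+ rats (SD, 4 rats each). It was 3.28 higher in MI than in Sham, a 9.7-fold shift (exact permutation p = 0.0286, adjusted p = 0.0457). The 2 pore genes thus changed order: Kcnj11 had more counts in each Sham rat and Kcnj8 in each infarcted rat. The summed level of 8 smooth muscle and pericyte markers, 866 to 948 CPM in Sham, 392 to 775 CPM in MI and 329.6 to 506 CPM in iCarP+/Light+ rats, had 1 member called higher in MI against Sham, Cnn1, and 2 called lower, and its part in the ratio was not tested. The receptor genes, which are not Kcn members, were lower in MI: Abcc8 by 3.81 and Abcc9 by 1.54 on the log2 scale, and both were called.

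**Figure D3:**
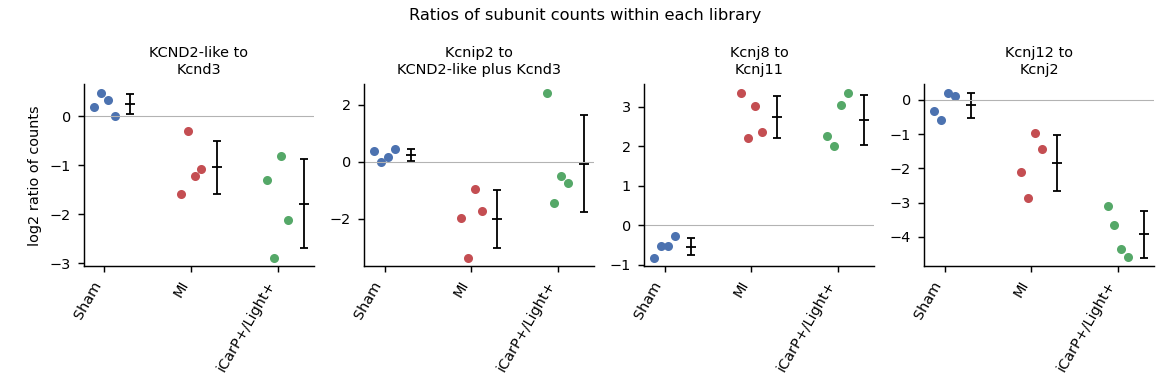
Log2 ratios of counts (plus 0.5) between subunits of the same current within each library, with 1 point per rat and the mean ± SD for Sham, MI and iCarP+/Light+ (4 rats each). The Kcnj8 to Kcnj11 ratio is negative on average in Sham and positive in both infarcted groups, and the Kcnj12 to Kcnj2 ratio averages −0.15 in Sham, −1.84 in MI and −3.93 with iCarP+/Light+.

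The channel gated by acetylcholine through G proteins is formed by Kcnj3 and Kcnj5 and is strongest in atrial muscle. Kcnj3 was at 12.8 to 22.6 CPM in Sham and 0.671 to 2.70 CPM in MI (−3.68 ± 0.42, adjusted p = 6.04e-06), and Kcnj5 was at 24.5 to 38.3 CPM in Sham and 8.82 to 17.0 CPM in MI (−1.20 ± 0.33, adjusted p = 0.00601, a call lost with total counts alone at −0.62). Neither gene overlapped between the groups.

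Tandem-pore channels pass a background current at rest. Kcnk2 (ENSRNOG00000002653, chromosome 13, 107690087 to 107886476, minus strand), whose channel responds to stretch and lipids, was at 42.5, 33.8, 42.8 and 40.4 CPM in Sham and 0.959, 1.24, 0.839 and 1.28 CPM in MI. Its 4 MI values lay close together, and its adjusted p was the lowest of the members that fell (−5.20 ± 0.25, adjusted p = 2.51e-08). Kcnk3, an acid-sensitive channel, was at 147 to 187 CPM in Sham and 27.3 to 36.6 CPM in MI (−2.36 ± 0.31, adjusted p = 2.04e-05).

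Small-conductance channels couple calcium to repolarization. Kcnn3 was at 7.88 to 10.8 CPM in Sham and 0.503 to 2.16 CPM in MI (−2.97 ± 0.35, adjusted p = 8.49e-06), and Kcnn1 was at 2.06 to 3.62 and 1.15 to 1.90 CPM (−0.90 ± 0.30, adjusted p = 0.0186). The call of Kcnn1 was lost with total counts alone (−0.33), with a replicate block (−0.77), without MI rat 1 and without Sham rat 2. Kcnn2 was not tested: it was at 1.01, 0.409, 0.455 and 0.147 CPM in Sham, had 0 counts in each MI library and 0.125 CPM in 1 iCarP+/Light+ rat.

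The intermediate-conductance calcium-activated channel, which sets the membrane potential of activated leukocytes and proliferating fibroblasts, moved the other way. Kcnn4 (ENSRNOG00000019440, chromosome 1, 81230612 to 81245996, plus strand) was at 3.61, 3.89, 1.82 and 3.02 CPM in Sham and 124, 75.1, 142 and 89.0 CPM in MI (5.12 ± 0.28, adjusted p = 4.69e-08). Per kilobase of listed length it was the highest member in MI rats (49.2 CPM per kb), where Kcng2 was at 16.3 CPM per kb. Kcnn4 was 1 of 8 genes listed for cells other than the cardiomyocyte, of which 6 were tested, 5 were higher and 1 was lower, where 30.1% of all genes tested were higher and 33.6% lower. The list was chosen with earlier results of these data known. The summed leukocyte markers rose in the same rats, and their part in these levels was not tested.

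Of these, Kcna3, a channel of T cells and macrophages, was at 0.516 to 1.44 CPM in Sham and 3.97 to 9.10 CPM in MI (2.83 ± 0.40, adjusted p = 4.03e-05), and its locus is overlapped on the same strand by another listed gene, so reads cannot be assigned with certainty. Kcnk13, a tandem-pore channel of macrophage-lineage cells, was at 2.50 to 3.18 CPM in Sham and 8.30 to 15.7 CPM in MI (1.95 ± 0.27, adjusted p = 3.32e-05). The accessory subunit gene Kcne3 was at 0.506 to 1.44 and 2.78 to 6.42 CPM (2.21 ± 0.39, adjusted p = 2.66e-04). All 3 were higher in every MI rat than in any Sham rat. The accessory subunit gene Kcne4 rose less (0.69 ± 0.24, adjusted p = 0.021), its groups overlapped, and the call was lost with a replicate block (0.64), without MI rat 3 (0.50) and without Sham rat 2 (0.57). The 1 that was lower was Kcnmb1, the beta subunit of the large-conductance channel of smooth muscle, at 2.46 to 3.39 CPM in Sham and 1.01 to 2.54 CPM in MI, with overlap (−0.84 ± 0.30, adjusted p = 0.028), a call lost under 4 of 10 alternatives and in 4 of the 12 fits with a rat left out.

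The partner of Kcnmb1, the pore gene Kcnma1, was not tested and reached at most 0.650 CPM in any rat. Kcnk6 was not tested either: MI rats 3 and 4 were at 4.80 and 2.57 CPM and the other 10 rats at most at 0.379 CPM, and a Kcnk6-like copy is listed on the same chromosome, so the split of reads between them is uncertain. Outside this list, the voltage-gated genes Kcnq5 and Kcnh1 were also called higher in MI, but no Sham library reached 10 counts of either, so they passed the filter through the infarcted libraries alone and their calls give no support to a rise. Kcnq5 was at 0.152 to 0.442 CPM in Sham and 2.01 to 4.20 CPM in MI (3.26 ± 0.46, adjusted p = 4.09e-05), and Kcnh1 at 0.0737 to 0.478 and 0.971 to 1.44 CPM (2.44 ± 0.70, adjusted p = 0.00805). Their Sham levels were near the worth of 3 counts.

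Genes that are not Kcn members but work with these channels were compared for context, from a list of 17 of which 15 were tested. In MI against Sham, 14 were lower and 0 higher (median −2.01), where 33.6% of all genes tested were lower, and the cardiomyocyte markers fell with them (median −3.32). Klf15, a Krüppel-like factor known to regulate Kcnip2, was lower by 3.69 on the log2 scale (adjusted p = 6.04e-06). The Iroquois factors of the ventricular wall, Irx3, Irx4 and Irx5, had log2 fold changes of −2.01, −2.92 and −2.02, and Atp1b1, the beta subunit of the sodium-potassium pump, had −1.48, all called.

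When each member was expressed per 1000 counts of the 9 cardiomyocyte markers, as a description without a test, most of the falls were no longer seen. On this scale 33 of the 47 members were higher in every MI rat than in any Sham rat, 2 were lower and 12 overlapped. The marker denominator itself fell, and 91.9% of all genes tested were higher without overlap and 0.857% lower on this scale. The 2 that stayed lower were Kcnip2, at 0.543 to 0.678 in Sham and 0.0553 to 0.121 in MI, and Kcnk2, at 0.630 to 0.823 and 0.165 to 0.315. Kcnip2 passed the filter only through the Sham libraries, so its place here gives no support to a fall. The overlapping members included Kcnd3, Kcna5, Kcnh2, Kcnj11, Kcnj3 and Kcnj12. Kcnh2, for instance, was at 1.20 to 1.38 in Sham and 0.485 to 1.54 in MI, and Kcnj11 at 2.06 to 2.71 and 1.36 to 2.66. Kcnj8 was at 1.44 to 1.89 in Sham and 10.9 to 18.7 in MI.

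**Figure D4:**
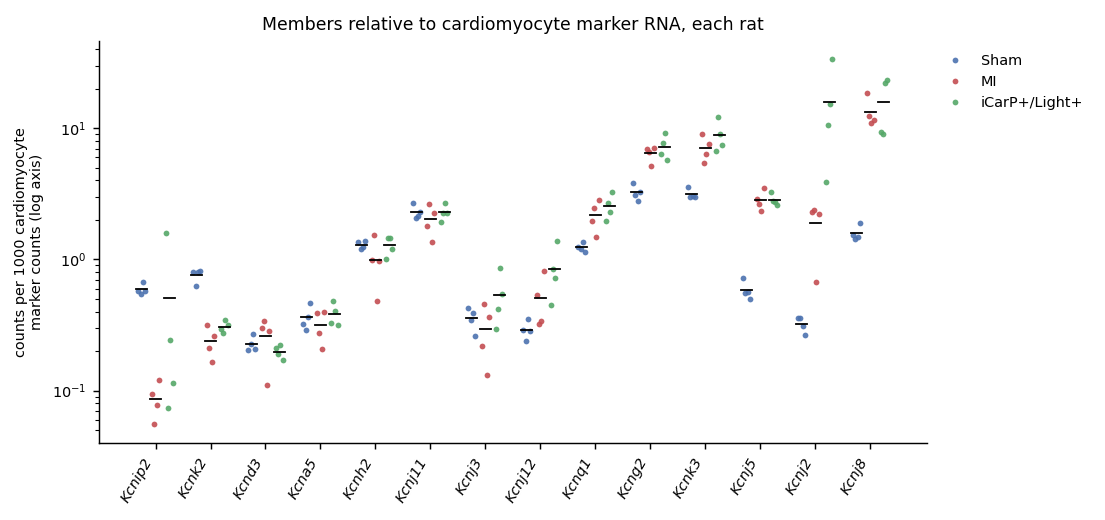
Counts of potassium channel genes per 1000 counts of 9 cardiomyocyte marker genes (log axis) in each rat, with 1 point per rat and colors for Sham, MI and iCarP+/Light+ (4 rats each, black bars at the means). Kcnip2 and Kcnk2 are lower in the MI rats than in Sham, Kcnj11 and Kcnh2 overlap, and Kcnj2 reaches 33.7 in an iCarP+/Light+ rat against at most 0.359 in Sham.

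In iCarP+/Light+ against MI, few members differed, and the repolarizing subunits that were low in MI were mostly near their MI level. Of the 47 tested, 3 were higher (6.38%: Kcnj2, Kcnrg and Kcne4), 2 were lower (4.26%: Kcne5 and Kcnn4) and 42 were not called, with a median log2 fold change of 0.10. Among all genes tested, 13.5% were called, 11.5% higher and 2.01% lower, with a median of 0.01. With total counts alone, 3 members were higher and 5 lower, where 7.93% of all genes were higher and 17.9% lower and their median was −0.25. This comparison and the one before share the 4 MI rats.

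Kcnj2 showed the largest called rise. It was at 26.8, 60.5, 51.2 and 82.5 CPM in the iCarP+/Light+ rats, each above every MI rat (3.41 to 14.0 CPM) and every Sham rat (13.0 to 19.0 CPM). The log2 fold change against MI was 2.65 ± 0.39, with a 95% interval of 1.80 to 3.50 and an adjusted p of 5.55e-04 from edgeR, and it was 2.31 to 2.96 when each rat was left out in turn. Against Sham it was 1.71 ± 0.38 (adjusted p = 0.0014). Per kilobase of listed length, Kcnj2 was the highest member in iCarP+/Light+ rats (32.9 CPM per kb), followed by Kcnj8 (24.4 CPM per kb) and Kcnn4 (23.7 CPM per kb).

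Its partner Kcnj12 was at 3.07, 4.84, 2.44 and 3.38 CPM in iCarP+/Light+ rats and overlapped with MI (0.57, 95% interval −0.09 to 1.23, adjusted p = 0.266). Without MI rat 5, Kcnj12 was called higher than in MI (0.97). Within a library the log2 ratio of Kcnj12 to Kcnj2 was 2.09 lower in iCarP+/Light+ than in MI (exact permutation p = 0.0286, adjusted p = 0.0457). Per 1000 cardiomyocyte marker counts, Kcnj2 was at 0.264 to 0.359 in Sham rats, at 0.672 to 2.39 in MI rats and at 3.92, 10.5, 15.2 and 33.7 in iCarP+/Light+ rats, without overlap between any of the groups. Against Sham, 91.9% of all genes tested were higher without overlap on this scale in MI and 92.9% in iCarP+/Light+. Kcnj2 was the 1 member that was higher on that scale in every iCarP+/Light+ rat than in any MI rat, Kcne5 was the 1 that was lower, and 45 overlapped, where 3.31% of all genes tested were higher without overlap and 0.468% lower. The summed leukocyte markers averaged higher with iCarP+/Light+ than in MI, with overlap, but 5 of the 9, Ptprc and the neutrophil genes Csf3r, Cxcr2, S100a8 and S100a9, were higher in every iCarP+/Light+ rat than in any MI rat. Csf3r was at 116 to 154 CPM in MI and 373 to 1194 CPM with iCarP+/Light+. S100a9 was at 124 to 301 CPM in MI and at 933, 2891, 1762 and 3163 CPM in iCarP+/Light+ rats 1, 2, 4 and 5. These 4 rats had the same order for Kcnj2, but Csf3r did not follow it. In MI, S100a9 was lowest in rat 3 and highest in rat 4, where Kcnj2 was highest (14.0 CPM) and lowest (3.41 CPM). The part of these markers in the level of Kcnj2 was not tested.

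**Figure D5:**
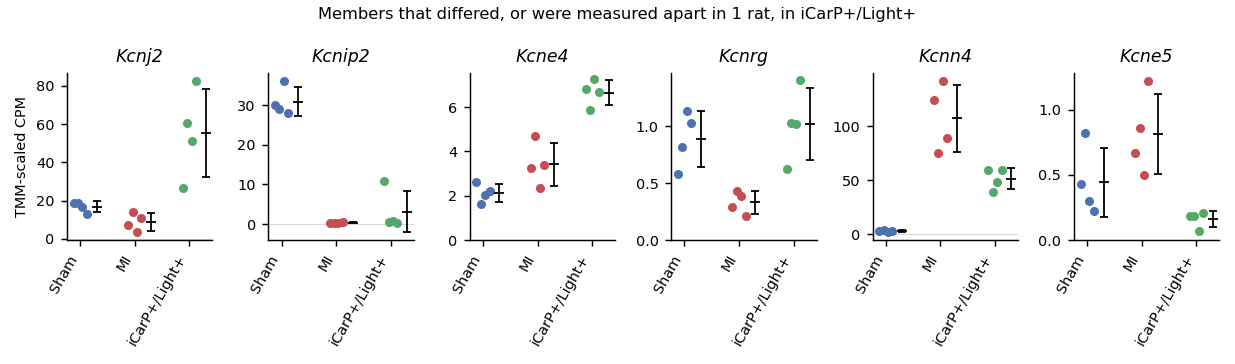
CPM (TMM scaling, linear axes that differ between panels) of 6 potassium channel genes in each rat, grouped as Sham, MI or iCarP+/Light+, with bars for the mean ± SD (4 rats each). Kcnj2 lies at 26.8 to 82.5 in iCarP+/Light+ rats, above both other groups, and Kcnip2 is at 11.0 in 1 iCarP+/Light+ rat and below 1 in the other 3.

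Kcne4, an accessory subunit that inhibits several voltage-gated channels, was at 6.83, 5.86, 7.25 and 6.69 CPM in iCarP+/Light+, above all MI rats (2.35 to 4.69 CPM). Its log2 fold change against MI was 0.96 ± 0.23 (adjusted p = 0.0124, or 0.051 without iCarP+/Light+ rat 5), and against Sham it was 1.65 (adjusted p = 4.27e-05). Kcnrg, which encodes a regulator of voltage-gated channel assembly, was at 0.626 to 1.41 CPM in iCarP+/Light+, 0.213 to 0.432 in MI and 0.578 to 1.14 CPM in Sham. It differed from MI (1.60 ± 0.39, adjusted p = 0.0135, or 0.0643 without iCarP+/Light+ rat 5) and overlapped with Sham (0.19, adjusted p = 0.662).

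Kcnn4 was the more abundant of the 2 members that were lower in iCarP+/Light+ than in MI. It was at 59.6, 39.7, 48.4 and 59.3 CPM against 75.1 to 142 CPM in MI (−1.06 ± 0.23, 95% interval −1.54 to −0.57, adjusted p = 0.00652), and was still above Sham (4.06 ± 0.27, adjusted p = 6.87e-08). Single leukocyte markers did not move alike between these groups: S100a9, a neutrophil gene, was at 124 to 301 CPM in MI and 933 to 3163 CPM in iCarP+/Light+ rats, whereas Lyz2, a gene of macrophages and granulocytes, was at 2795 to 5495 and 1969 to 3541 CPM with overlap. Their part in the level of Kcnn4 was not tested. Kcne5, an accessory subunit gene of low level, was at 0.188, 0.181, 0.0678 and 0.211 CPM in iCarP+/Light+ and 0.503 to 1.22 CPM in MI (−2.27 ± 0.52, adjusted p = 0.0103), and no iCarP+/Light+ library held more than 3 counts of it. Since it passed the filter only through Sham and MI libraries, its call gives no support to a fall, as that of Kcnrg gives none to a rise.

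Among the other members that were higher in MI than in Sham, Kcna3 was at 7.26, 15.8, 9.01 and 19.0 CPM in iCarP+/Light+. It was not called against MI (0.86, 95% interval 0.12 to 1.60, adjusted p = 0.126), but was called without iCarP+/Light+ rat 1 (1.06). Kcnk13 was at 4.07 to 8.73 CPM and just missed the threshold (−0.80, 95% interval −1.35 to −0.25, adjusted p = 0.0549). Kcne3 was at 4.86 to 9.76 CPM (0.48, adjusted p = 0.441) and Kcnab2 at 17.3 to 27.8 CPM (−0.14, adjusted p = 0.78).

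Kcnip2 was set apart by a single animal. It was at 11.0, 0.423, 0.813 and 0.281 CPM in iCarP+/Light+ rats 1, 2, 4 and 5, so that 3 of the 4 were close to the MI range of 0.288 to 0.585 CPM. The log2 fold change against MI was 2.97 ± 0.98 (adjusted p = 0.0654), and without rat 1 it was 0.35 (adjusted p = 0.597). With rat 1 kept, it was called without rat 2 (3.34, adjusted p = 0.0364) and without rat 5 (3.28, adjusted p = 0.04). The ratio of Kcnip2 to the sum of the KCND2-like locus and Kcnd3 was likewise 2.43 in rat 1 and −1.45 to −0.49 in the other 3 on the log2 scale, and the difference from MI was 1.95 (exact permutation p = 0.0571, adjusted p = 0.0762), or 1.12 without rat 1.

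For 8 of the remaining repolarizing subunits, the intervals of the difference between iCarP+/Light+ and MI give the size that these 8 rats allow. They were −0.52 to 1.08 for Kcnh2 (6.95, 8.40, 4.88 and 2.96 CPM in iCarP+/Light+), −0.53 to 0.74 for Kcnq1, −0.61 to 0.75 for Kcnj11, −0.20 to 0.92 for Kcnk2, −0.28 to 1.00 for Kcnk3, −0.41 to 1.05 for Kcna5 and −1.24 to 0.49 for Kcnd3. Kcnj8 had the narrowest of those given here, −0.25 to 0.31. None of these 8 genes was called, and each had an adjusted p of at least 0.437. Larger differences, not called either, were those of Kcna4 (−0.76, −1.75 to 0.23, adjusted p = 0.335), Kcnn3 (0.67, −0.09 to 1.43, adjusted p = 0.26) and Kcnj3 (0.59, −0.31 to 1.48, adjusted p = 0.427). Kcnn1 (−0.38), Kcnj5 (0.02) and Kcnab1 (0.24) were also not called. The KCND2-like locus was at 0.0704 to 0.564 CPM (−1.22, adjusted p = 0.287), and the log2 ratio of Kcnj8 to Kcnj11 differed by −0.08, less than its SD in either group. Of the 15 partner genes, 0 were higher and 1 was lower, Etv1, a factor of fast-conducting atrial and Purkinje myocytes (−0.89, adjusted p = 0.0472), where 11.5% and 2.01% of all genes tested were called.

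In iCarP+/Light+ against Sham, the pattern was that of an infarcted ventricle with a few exceptions. Of the 47 tested members, 27 were lower, 10 were higher and 10 were not called (median −1.28). Of all genes tested, 66.4% were called, 33.0% lower and 33.4% higher (median 0.02). In CPM, 26 members were lower without overlap and 10 higher, against 31.6% and 31.8% of all genes. Per 1000 cardiomyocyte marker counts, 35 members were higher without overlap, 1 was lower, Kcnk2, and 11 overlapped, against 92.9% and 0.547% of all genes. Kcnk2 had the lowest log2 fold change (−4.84 ± 0.25, adjusted p = 1.42e-08), at 2.00, 1.57, 1.15 and 0.774 CPM in iCarP+/Light+ rats, followed by Kcna2 (−4.17 ± 0.49, adjusted p = 7.32e-06) and Kcnd3 (−3.66 ± 0.40, adjusted p = 3.52e-06). Kcnip2, which passed the filter only through Sham, was at −3.29, but without iCarP+/Light+ rat 1 it was at −5.91 (adjusted p = 2.48e-08), below Kcnk2. Kcnn4 (4.06), Kcna3 (3.70 ± 0.40, adjusted p = 3.96e-06) and Kcnh1 (2.96 ± 0.70, adjusted p = 0.00214) were highest, but Kcnh1 passed the filter through the infarcted libraries alone, and without iCarP+/Light+ rat 5 it was at 1.96 (adjusted p = 0.00426). Of the 19 tested current subunits, 16 were lower and 2, Kcnj2 and Kcnab2, were higher.

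Read across the 3 groups, 22 members were lower in both infarcted groups than in Sham and not called between the infarcted groups, a pattern of 28.2% of all genes tested. In the same way 7 were higher in both (20.4% of all genes), among them Kcnq5, Kcnh1 and Kcnk7, 9 were not called in any comparison (25.2%) and 4 were called only as lower in iCarP+/Light+ against Sham (3.48%). The other 5 each had a pattern of their own. Kcnj2 was higher in iCarP+/Light+ than in either other group, while its call as lower in MI than in Sham was lost under 7 of 10 alternatives and in 9 of the 12 fits with a rat left out. Kcne4 was called higher in each of the 3 comparisons, though its call in MI against Sham was not stable, Kcnn4 was highest in MI, Kcnrg was lowest in MI, and Kcne5 was lowest in iCarP+/Light+ rats. The call of Kcne5 against Sham (−1.42, adjusted p = 0.0384) was lost in 5 of the 8 fits with a rat left out in which the gene still passed the filter.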

How the data were processed

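Left ventricular RNA of 12 rats in 3 groups of 4 was analysed from 1 table, in which the authors deposited raw read counts per locus without normalization. The labels name HISAT2, featureCounts and the rat genome rn6, without versions. The strand setting and annotation release are not given in the sources used here, so reads of overlapping genes on opposite strands cannot be told apart. Groups were taken from the labels. Replicates are separate animals, and the 18 within-group pairs differed by a chi-square per gene of 14.8 to 119, so none was counted as a copy. Columns of other samples numbered 0.

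The members and the gene lists were chosen with earlier results of these data known. Genes with at least 10 counts in at least 4 libraries (15175) were fitted in edgeR 4.0.16 under R 4.3.3, with TMM scaling (factors 0.786 to 1.26), 1 mean per group over all 12 rats and Benjamini-Hochberg adjustment over all genes at 0.05. Named genes were 31 fixed subunit genes, up to 3 called members with the highest and the lowest log2 fold change per comparison, and the highest CPM per kb in each group. Of these, 1 is not reported here by name but stays in the counts. Further genes were chosen after their values were seen. The KCND2-like locus stood in for Kcnd2 in the ratios, which were tested with scipy 1.17.1. Methods were tested on simulated data. Alternatives were DESeq2 1.42.0 and its size factors, total counts alone, limma-voom (limma 3.58.1), other filters, no mitochondrial genes, a replicate block, only the compared groups, a pseudocount of 1 and each rat left out. Promoter windows and motifs were taken from RefSeq GRCr8, and no coordinate was converted between builds.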

Additional observations from a re-analysis of the deposited data

Results flagged for a closer look

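In 7 of 93 groups of 4 values (a named gene in 1 group of rats), the gap in log2 CPM (prior count 2) between the outermost rat and its nearest neighbor took up more of the group's range than Dixon's 95% limit, where chance flags about 4.65. MI rat 5 was apart for Kcnj12, at 3.99 CPM against 1.63 to 1.89 CPM in the other 3 (gap 0.839 of the range). MI rat 3 was apart for Kcnj8, at 72.9 against 55.4 to 56.7 CPM (0.917), and MI rat 1 for Kcna2, at 0.431 against 1.01 to 1.13 CPM (0.871). Sham rat 1 was apart for Kcnj11, at 143 against 110.4 to 115 CPM (0.831). In the iCarP+/Light+ group, rat 5 was apart for Kcna2, at 0.141 against 1.08 to 1.19 CPM (0.948), and for Kcnh1, at 4.43 against 0.813 to 0.907 CPM (0.940). Without rat 5 the log2 fold change of Kcnh1 against MI was −0.58 in place of 0.52. Rat 4 was apart for Kcne5, at 0.0678 against 0.181 to 0.211 CPM (0.833), values of only a few counts.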

How the results depend on the processing

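Of 957 values recomputed under alternatives other than leaving out a rat, 898 kept their direction and side of the threshold, 22 lost a call, 7 gained one, 24 changed sign and 6 counts moved by more than 1.5 times. With a rat left out, 1179 of 1240 kept both, 25 lost a call, 8 gained one, 26 changed sign and 2 counts moved. The call of Kcnj2 in MI against Sham was lost under 7 of 10 alternatives, and its calls in iCarP+/Light+ against MI and against Sham under none of them. All 4 ratios kept their side with a pseudocount of 1. Depth limits the 45 untested members and those near 3 counts, such as Kcne5.

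With at least 10 counts in every sample only 26 members were tested, which gave 4 higher and 15 lower in MI against Sham and 6 higher and 15 lower in iCarP+/Light+ against Sham, and left no value for members such as Kcnip2. Of all genes tested under that filter, 33.7% were higher and 31.9% lower in MI against Sham, and 34.6% and 33.6% in iCarP+/Light+ against Sham. In iCarP+/Light+ against MI, the members called lower numbered 5 with total counts alone, 1 with only the compared groups, where fewer rats and members were tested, and 1 to 3 with a rat left out (1 without MI rat 1 or Sham rat 2). Of all genes tested, 17.9% were lower with total counts alone and 1.57% with only the compared groups. With a rat left out, the members called in MI against Sham numbered 8 to 10 higher and 21 to 25 lower, those called higher in iCarP+/Light+ against MI 2 to 4, and those in iCarP+/Light+ against Sham 10 to 11 higher and 25 to 27 lower.

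The sign changes were in log2 fold changes that were not called, except for Kcnj8 in MI against Sham. With total counts alone, Kcnab1 was at 0.23 and Kcnj8 at 0.13 in MI against Sham, Kcnab1 at 0.21 in iCarP+/Light+ against Sham, and in iCarP+/Light+ against MI Kcnab1 was at −0.03, Kcnq1 −0.17, Kcnj8 −0.23, Kcnj11 −0.19, Kcnj5 −0.24 and Kcng2 −0.11. That scaling moved the median of all genes in that comparison to −0.25. Also in iCarP+/Light+ against MI, Kcnj8 was at −0.02 with DESeq2 or its size factors, −0.01 without mitochondrial genes or with only the compared groups and −0.03 under the filter of 10 counts in every sample. Kcnj5 was at −0.04 with DESeq2 or its size factors, −0.07 with limma-voom, −0.02 without mitochondrial genes or with only the compared groups and −0.05 under the filter of 10 counts in every sample. Kcnab1 was at 0.03 with limma-voom in iCarP+/Light+ against Sham. The cause was not tested. With a rat left out, sign changes in iCarP+/Light+ against MI spanned −0.38 to 0.09 for Kcnab2, −0.10 to 0.30 for Kcnq1, −0.07 to 0.13 for Kcnj8, −0.13 to 0.39 for Kcnj11, −0.33 to 0.17 for Kcnj5, −0.03 to 0.52 for Kcnk3, −0.44 to 0.03 for Kcnmb1, −0.25 to 0.26 for Kcna2, −0.58 to 0.76 for Kcnh1 and −0.03 to 0.32 for Kcng2, and in iCarP+/Light+ against Sham −0.35 to 0.12 for Kcnab1.

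Same-numbered rats of different groups are not the same animal, and their deviations from the group means correlated at −0.151 to 0.0623, so the numbers did not pair the rats. With a replicate block, 8 members were higher and 21 lower in MI against Sham, 3 higher and 2 lower in iCarP+/Light+ against MI, and 10 higher and 26 lower in iCarP+/Light+ against Sham. Of all genes tested in that fit, 27.1% were higher and 30.3% lower, 7.6% and 0.929%, and 30.5% and 30.0%, in the same order. In that fit Kcnj5 was at −0.13 and Kcna2 at 0.29 in iCarP+/Light+ against MI, and Kcnab1 at 0.17 in iCarP+/Light+ against Sham.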
